A study of Mus musculus with 12 samples.

Results

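The genes described here encode the peptide growth factors of the FGF, PDGF, VEGF, IGF and EGF systems with their receptors and binding proteins, together with the ligand and receptor pairs Hgf and Met, and Kitl and Kit. They were taken by gene symbol: every symbol beginning with Fgf and a number, Fgfr1 to Fgfr4, and every symbol beginning with Pdgf, Vegf, Igf1, Igf2 or Igfbp and a number, plus Hgf, Met, Kitl, Kit, Areg, Ereg, Hbegf and Egfr. This gave 54 of the 20774 genes in the tables, of which 21 were in the FGF system, 15 in the IGF system, 7 in the PDGF system, 4 in the EGF system and 3 in the VEGF system, with 4 for Hgf, Met, Kitl and Kit. The symbol rule also brought in genes that share a name more than a function. These were Fgf11 to Fgf14, whose proteins stay inside the cell, the RNA-binding proteins Igf2bp1 to Igf2bp3, the antisense transcript Igf2os, and Pdgfrl, a receptor-like gene whose product has no kinase domain. VEGF-D is listed under its older symbol Figf and was therefore not among the 54.

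The RNA came from homogenized whole lung of wild-type C57BL/6J mice, whose labels give 8 weeks as the age. Paraquat (PQ), a redox-cycling herbicide that injures the lung, was given as 1 intratracheal dose in saline, and control mice were treated with saline. The groups were PQ 1w and control 1w, and PQ 4w and control 4w, with 3 libraries each, where 1w and 4w are the labels' time points. No label says that the replicates were separate animals, so the p-values measure the spread between these libraries, which may be technical.

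Receptor tyrosine kinase ligands bind receptors at the cell surface and start the ERK and PI3K cascades that control growth, survival and migration. In the lung, FGF7 and FGF10 from mesenchyme act on FGFR2 of the epithelium, PDGF ligands act on PDGF receptors of fibroblasts and pericytes, and VEGF-A from alveolar type 1 cells maintains the capillary bed. IGF1 comes from macrophages and fibroblasts and is held by a set of secreted IGF binding proteins, while EGF family ligands are made as membrane precursors and released by ADAM proteases to act on EGFR and its relatives.

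Library totals ran from 17220978 to 18559809 expected counts. At these totals 3 counts correspond to 0.162 to 0.174 CPM (expected counts scaled to a library total of 1000000). Of the 54 genes, 47 were listed in all 12 libraries and 44 passed the filter on low counts and were tested. The 10 that were not tested were Fgf5, Fgf8, Fgf9, Fgf16, Fgf17, Fgf21, Fgf22, Fgf23, Igf2os and Igfbp1, and none of them exceeded 0.97 CPM in any library. The PQ 4w libraries differed most among themselves. Over all genes PQ 4w replicate 3 stood farthest from the others, with a chi-square per degree of freedom of 32.2 and 34.4 in its pairs and 16.15 between replicates 1 and 2, where pairs within the other groups had 7.41 to 14.5. Its summed level over 6 airway marker genes was 23990 CPM, against 38380 CPM in replicate 1 and 47790 CPM in replicate 2. PQ 4w replicate 1 was lowest over 7 alveolar type 1 marker genes, with 2486 CPM, against 3559 CPM in replicate 2 and 4129 CPM in replicate 3. Markers of lung epithelium, endothelium and fibroblasts were present in every group, and no marker gene of the 13 lists was at 0 across a whole group.

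Whole lungs at 1w after PQ had higher mRNA levels of Ereg, Pdgfc, Igf1, Pdgfrl and Areg than control lungs, and lower levels of Igfbp3, Fgf1, Igfbp6, Fgfr3 and Met. Of the 44 genes tested at 1w, 14 were called higher, 17 lower, and 13 did not pass (edgeR quasi-likelihood test, Benjamini-Hochberg adjusted p under 0.05 over all genes). That is 70.5% called, where 48.8% of all 15921 genes tested were called, 25.9% higher and 22.9% lower. The groups did not overlap for 34 of the 44, 77.3%, where the share over all genes was 58.6%. The median log2 effect was -0.06 for the 44 genes and 0.005 for all genes, and the median absolute log2 effect was 0.60 for the 44 genes and 0.32 for all genes. In these whole-tissue samples, fewer cells of a type and less RNA per cell cannot be told apart.

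At 4w the differences were fewer: 5 genes were called higher, 10 lower, and 29 did not pass. This is 34.1% called, where 12.1% of all genes were called, 5.75% higher and 6.39% lower. The groups did not overlap for 21 of the 44, 47.7%, where the share over all genes was 31.3%. The split over all genes, 915 higher and 1017 lower, became 1370 higher and 631 lower when libraries were scaled by their totals only, so the direction of small differences at 4w depended on the scaling. The 5 called higher at 4w, Ereg, Pdgfc, Areg, Pdgfrl and Igf1, were also called higher at 1w. Without PQ 4w replicate 3, 4 genes were called higher and 14 lower at 4w. Without PQ 4w replicate 1 the counts were 3 higher and 7 lower, and without control 4w replicate 1 they were 3 higher and 6 lower.

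**Figure D1:**
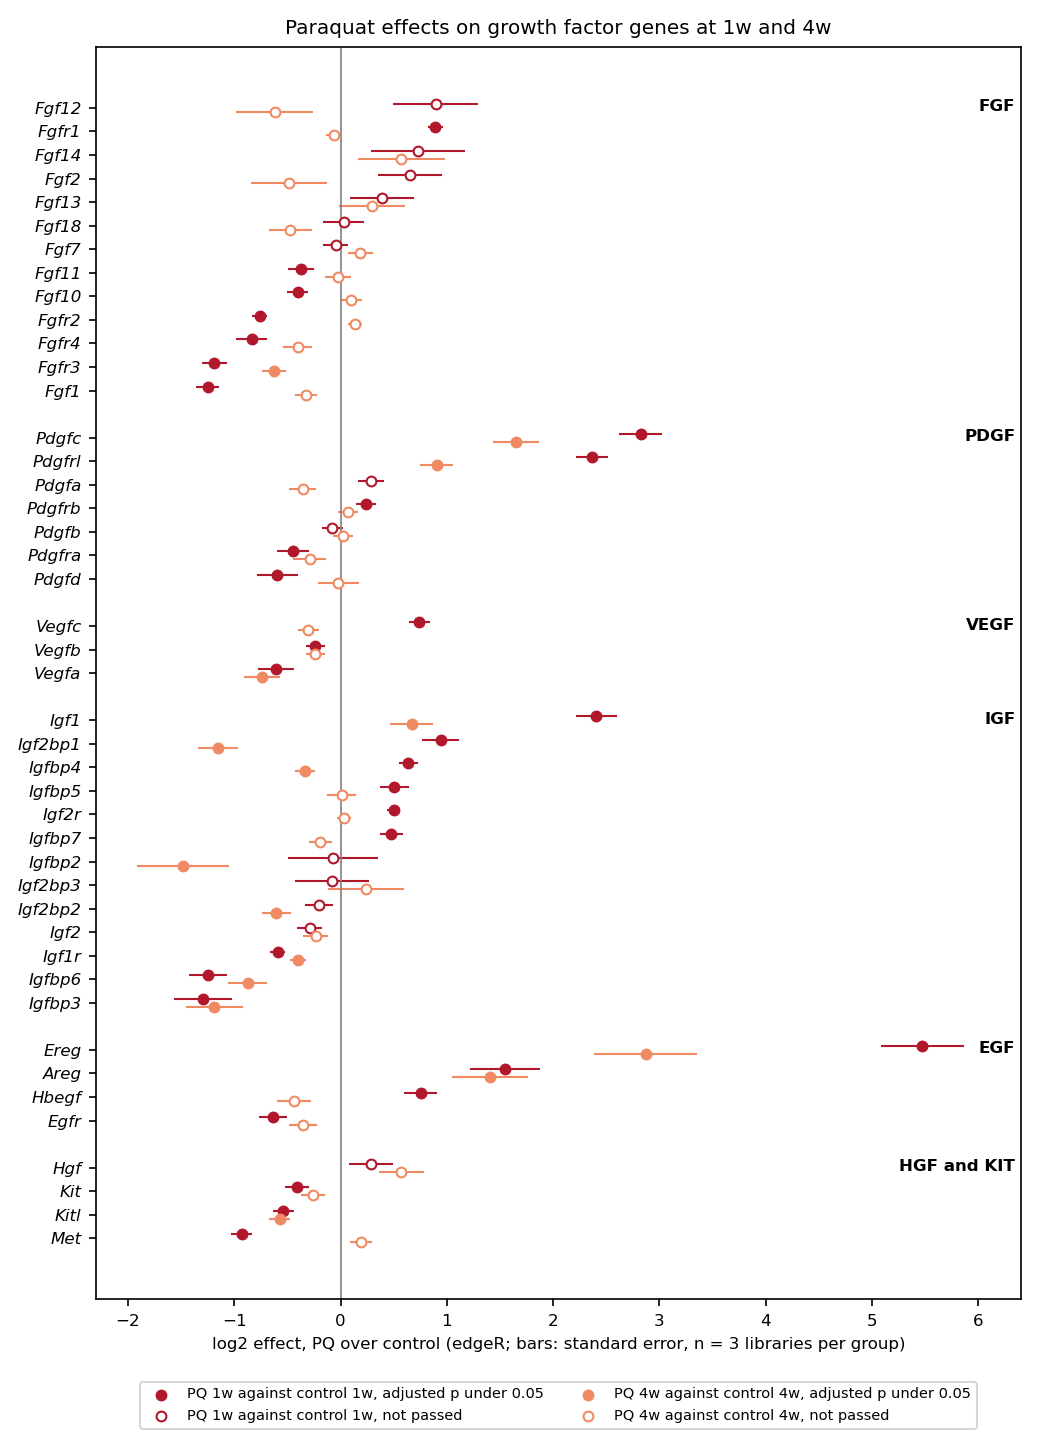
Log2 effects of PQ over control at 1w (dark red) and 4w (light orange) for the 44 genes tested, ordered within each system by the 1w effect, with bars for the standard error (n = 3 libraries per group) and filled points for adjusted p under 0.05. Ereg has the greatest 1w effect, 5.48, and the 5 genes called higher at 4w all have a smaller effect there than at 1w.

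The starts of 5 genes are shown because these had the 3 greatest rises and the 2 greatest falls at 1w among the genes whose promoter could be printed. The windows run from 250 bases before to 50 bases after a RefSeq transcript start (GRCm38.p6, the same build as mm10), each written 5′ to 3′ on the gene's strand. Capitals mark TGACGTCA (the cAMP response element), TATAAA (the TATA box), TGANTCA (AP-1-like letters, N being any base), GGGCGG (the GC box) and ACGTG (the hypoxia response core). These were searched on both strands, and none overlapped another in these windows. The positions are Pdgfc at chr3:81036166-81036465 (plus strand), Igf1 at chr10:87860861-87861160 (plus), Areg at chr5:91139349-91139648 (plus), Igfbp3 at chr11:7213874-7214173 (minus) and Igfbp6 at chr15:102143936-102144235 (plus). For Igf1 and Igfbp3 the window lies inside the annotated gene, at the start of a transcript other than the longest.
Pdgfc: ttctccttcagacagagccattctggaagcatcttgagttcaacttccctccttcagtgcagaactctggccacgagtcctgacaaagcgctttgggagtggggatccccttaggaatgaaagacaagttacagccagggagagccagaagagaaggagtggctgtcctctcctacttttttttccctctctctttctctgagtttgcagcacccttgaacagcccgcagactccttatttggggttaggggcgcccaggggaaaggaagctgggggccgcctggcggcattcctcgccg
Igf1: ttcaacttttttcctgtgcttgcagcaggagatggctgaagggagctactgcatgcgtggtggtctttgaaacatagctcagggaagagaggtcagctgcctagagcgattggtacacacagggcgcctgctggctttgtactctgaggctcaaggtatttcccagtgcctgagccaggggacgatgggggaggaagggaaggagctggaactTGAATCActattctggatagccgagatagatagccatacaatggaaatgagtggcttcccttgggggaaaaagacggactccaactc
Areg: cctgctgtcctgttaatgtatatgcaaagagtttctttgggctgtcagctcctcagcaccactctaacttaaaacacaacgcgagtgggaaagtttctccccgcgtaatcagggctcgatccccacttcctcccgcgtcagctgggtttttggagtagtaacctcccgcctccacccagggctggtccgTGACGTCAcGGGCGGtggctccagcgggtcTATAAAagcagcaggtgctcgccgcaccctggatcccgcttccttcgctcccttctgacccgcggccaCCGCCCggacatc
Igfbp3: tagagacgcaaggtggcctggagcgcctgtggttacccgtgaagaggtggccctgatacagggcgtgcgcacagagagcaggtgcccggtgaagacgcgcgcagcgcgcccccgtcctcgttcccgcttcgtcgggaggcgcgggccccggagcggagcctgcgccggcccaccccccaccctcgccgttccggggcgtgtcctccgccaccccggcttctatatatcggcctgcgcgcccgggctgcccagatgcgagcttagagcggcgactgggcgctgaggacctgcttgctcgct
Igfbp6: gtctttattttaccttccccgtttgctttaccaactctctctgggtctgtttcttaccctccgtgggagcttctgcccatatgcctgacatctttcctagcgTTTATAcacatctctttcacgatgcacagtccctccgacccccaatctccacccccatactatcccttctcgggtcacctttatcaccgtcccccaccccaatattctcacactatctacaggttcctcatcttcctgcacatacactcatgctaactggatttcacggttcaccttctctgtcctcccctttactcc
Areg held 1 cAMP response element 61 bases upstream of the start, a GC box 52 bases upstream, a TATA box 31 bases upstream and a further GC box after the start. Igf1 held 1 AP-1-like match, TGAATCA, 37 bases upstream, Igfbp6 held a TATA box on the opposite strand, and the Pdgfc and Igfbp3 windows held none of these letters. Of the 54 genes, 42 had at least 1 window, 57 windows in all. The cAMP response element was in the window of Areg and no other of the 42, and in 1.79% of all 32851 windows. AP-1-like letters were in 8.77% of the 57 windows and 7.81% of all windows, TATA boxes in 14.0% and 13.6%, hypoxia cores in 21.1% and 19.6%, and GC boxes in 59.6% and 35.7%. A match is a description of the sequence and was not tied to the effects.

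In the EGF system all 3 ligands on the list were called higher in PQ 1w lungs and the receptor Egfr was called lower. Ereg encodes epiregulin, a ligand of EGFR and ERBB4. It stood at 15.5, 14.7 and 15.4 CPM in the PQ 1w libraries, against 0.50, 0.33 and 0.16 CPM in the control 1w libraries. Every PQ 1w library lay far above every control, and the control values rest on 18 counts in all. The fitted difference was 44.5-fold (log2 5.48 ± 0.39 SE, adjusted p = 5.7e-07). At 4w Ereg was at 2.61, 2.0 and 0.74 CPM in PQ lungs, against 0.28, 0.17 and 0.22 CPM in control lungs, again without overlap, 7.32-fold (log2 2.87 ± 0.49, adjusted p = 0.004), with 12 counts in the controls.

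Areg, which encodes amphiregulin, an EGFR ligand of injured epithelium and of type 2 innate lymphoid and regulatory T cells, lies next to Ereg on chromosome 5 (Ereg at chr5:91074617-91093649, Areg at chr5:91139599-91148432). Its levels were 23.6, 20.6 and 20.1 CPM in PQ 1w libraries, against 8.57, 8.47 and 4.82 CPM in control 1w libraries. The groups did not overlap, and the difference was 2.92-fold (log2 1.54 ± 0.33, adjusted p = 0.00218). At 4w the values were 17.2, 7.85 and 5.84 CPM in PQ lungs, against 4.39, 3.71 and 2.92 CPM in controls. PQ 4w replicate 1 was the high library, and the log2 effect of 1.41 ± 0.36 (adjusted p = 0.0247) was 0.84 (adjusted p = 0.0828) without it. The call was also lost without control 4w replicate 1, 2 or 3 and with only the 2 groups compared, at adjusted p from 0.0581 to 0.0872. The sum over 6 T cell and ILC2 markers was 65.8 to 78.6 CPM in PQ 1w and 102 to 112 CPM in control 1w libraries, with all 6 called lower. The 4w sum was 108 to 135 CPM in PQ and 91.7 to 96.4 CPM in control lungs, with 3 called higher, 3 not passed and none lower. These markers were thus lower where Areg was higher at 1w, and higher with it at 4w, and their part in the Areg level was not tested.

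Hbegf, the heparin-binding EGF-like ligand, followed another course. It was at 125, 125 and 121 CPM in PQ 1w libraries, against 91.4, 56.4 and 70.1 CPM in control 1w libraries, 1.69-fold (log2 0.76 ± 0.15, adjusted p = 0.00159). At 4w it was at 30.0, 40.1 and 42.0 CPM in PQ and 50.4, 51.3 and 43.1 CPM in control lungs, with every PQ library below every control, though this did not pass the test (log2 -0.44 ± 0.16, adjusted p = 0.0944). The effects at 4w and 1w differed by -1.19 ± 0.22 (adjusted p = 0.00188). Control lungs also differed with time, with a log2 effect of -0.60 at 4w against 1w (adjusted p = 0.0375), a call that did not pass under 7 of 19 settings.

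Egfr itself, the receptor of all 3 ligands, was at 25.7, 22.8 and 23.9 CPM in PQ 1w libraries, against 39.6, 30.2 and 41.9 CPM in control 1w libraries. It was lower in every PQ library (log2 -0.63 ± 0.13, adjusted p = 0.00175). Its levels at 4w were 17.7, 18.5 and 23.6 CPM in PQ and 26.1, 22.9 and 23.6 CPM in control lungs, and the groups overlapped (log2 -0.35 ± 0.13, adjusted p = 0.11). The 3 ligands on the list were thus higher and Egfr lower at 1w, while Tgfa, given below, was called lower. Expressed per transcript length, as a share of the summed FPKM of the 3 ligands, Ereg made up 5.0% ± 0.18 in PQ 1w and 0.22% ± 0.08 in control 1w libraries (SD, n = 3 each), and Hbegf made up 70.5% in PQ 1w and 82.8% in control 1w libraries.

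Among 11 further EGF family genes on a list of ligands and receptors, 9 were tested at 1w. The neuregulins Nrg1 (log2 0.95) and Nrg4 (0.59) were called higher, Tgfa (-0.83) and Erbb3 (-0.59) lower, and 5 did not pass. At 4w only Tgfa was called, lower at -0.40. For this list and the next, the share of all genes called was 48.8% at 1w and 12.1% at 4w. Of 6 ADAM genes that include the sheddases of these ligands, Adam9, Adam10, Adam12 and Adam19 were called higher at 1w, none lower, and none was called at 4w. Adam12 stood at 48.0 ± 3.2 CPM in PQ 1w and 5.09 ± 1.16 CPM in control 1w libraries (SD, n = 3 each), 9.34-fold. Adam17, the main sheddase of amphiregulin and HB-EGF, had a log2 effect of 0.12 ± 0.08 at 1w and did not pass (adjusted p = 0.25).

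**Figure D2:**
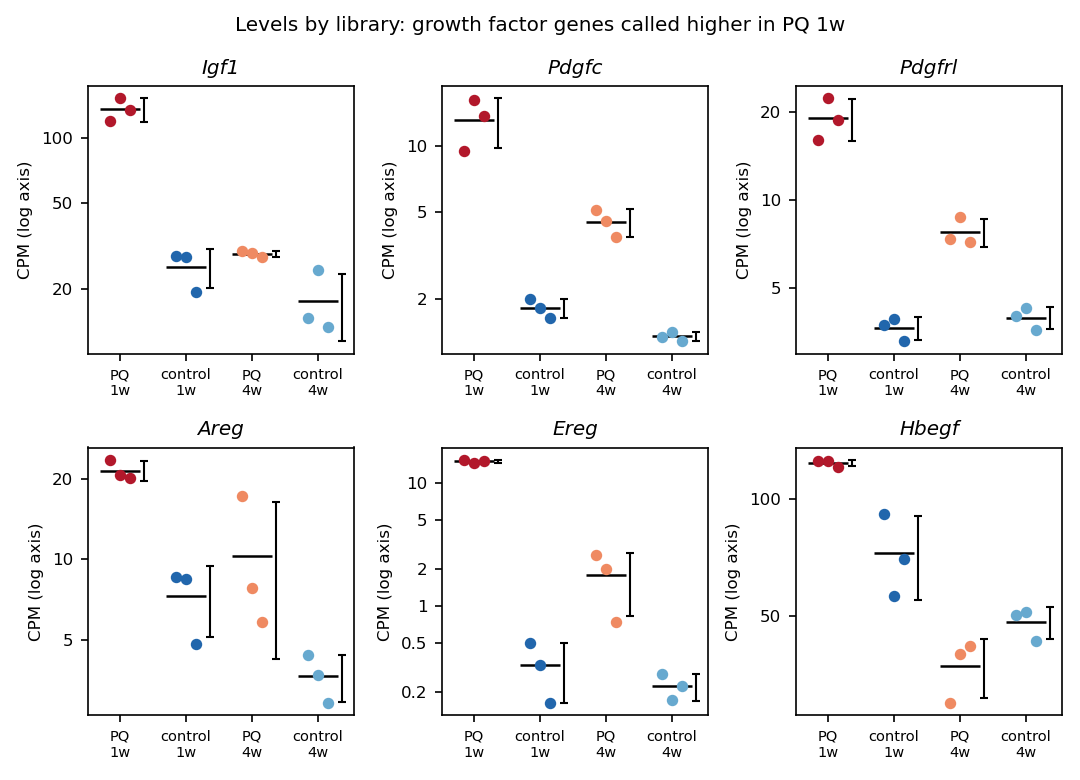
CPM on a log axis for Igf1, Pdgfc, Pdgfrl, Areg, Ereg and Hbegf in each of the 12 libraries, with PQ left of control at each time, points for libraries, horizontal lines for group means and bars for the SD (n = 3). In each panel the 3 PQ 1w points lie above the 3 control 1w points, and Hbegf is the panel in which the PQ 4w points lie below the control 4w points.

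In the PDGF system the ligand Pdgfc and the receptor-like gene Pdgfrl rose at both times, while the classical ligands Pdgfa and Pdgfb did not pass the test at either time. Pdgfc encodes PDGF-CC precursor, which binds mainly PDGFRα after protease activation. It was at 9.48, 16.1 and 13.7 CPM in PQ 1w libraries, against 2.02, 1.83 and 1.64 CPM in control 1w libraries, a difference of 7.08-fold (log2 2.82 ± 0.20, adjusted p = 5.97e-07). The values at 4w were 5.11, 4.53 and 3.83 CPM in PQ lungs, against 1.35, 1.43 and 1.29 CPM in control lungs, 3.14-fold (log2 1.65 ± 0.22, adjusted p = 0.00129). No PQ library fell within the control range at either time.

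Pdgfrl, whose protein resembles the outer part of a PDGF receptor, was at 16.0, 22.3 and 18.8 CPM in PQ 1w libraries, against 3.75, 3.93 and 3.29 CPM in control 1w libraries. That is 5.15-fold (log2 2.37 ± 0.15, adjusted p = 2.99e-07), without overlap. At 4w the levels were 7.38, 8.76 and 7.21 CPM in PQ lungs, against 4.00, 4.28 and 3.59 CPM in control lungs, 1.87-fold (log2 0.91 ± 0.15, adjusted p = 0.00405).

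Pdgfa, which encodes the PDGF-A chain that acts through PDGFRα, was at 58.3, 65.6 and 64.0 CPM in PQ 1w and 44.0, 58.8 and 50.2 CPM in control 1w libraries, which overlapped (log2 0.28 ± 0.12, adjusted p = 0.0725). Among the 4w libraries it was at 37.9, 49.5 and 45.7 CPM in PQ lungs, against 58.5, 53.6 and 50.4 CPM in controls, with every PQ library lower but the test not passed (log2 -0.36 ± 0.12, adjusted p = 0.08). Neither difference passed, but the difference between them did, at -0.64 ± 0.17 (adjusted p = 0.0147). Pdgfb, the PDGF-B chain made largely by endothelium, was at 142, 168 and 159 CPM in PQ 1w and 151, 150 and 190 CPM in control 1w libraries (log2 -0.08 ± 0.10, adjusted p = 0.538). Corresponding values at 4w were 195, 190 and 171 CPM in PQ and 162, 183 and 176 CPM in control lungs (log2 0.02 ± 0.10, adjusted p = 0.912). The groups overlapped at both times, and the sign of these small effects changed when single libraries were left out. Pdgfd was called lower at 1w (log2 -0.60 ± 0.19, adjusted p = 0.0217), a call lost without PQ 1w replicate 1, control 1w replicate 1 or control 1w replicate 3.

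Per transcript length, Pdgfa and Pdgfb stayed the major PDGF ligand mRNAs. Pdgfc took 2.97% ± 0.55 of the summed FPKM of the 4 ligands in PQ 1w and 0.46% ± 0.09 in control 1w libraries (SD, n = 3 each). At 4w its share was 1.12% ± 0.18 in PQ and 0.32% ± 0.01 in control lungs. The smallest p that an exact 2-sided permutation test of 3 against 3 libraries can give is 0.1, so such shares are given as descriptions.

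Of the PDGF receptors, Pdgfra was called lower and Pdgfrb higher at 1w, both calls depending on the setting. Pdgfra, a marker of lung fibroblasts, was at 402, 299 and 313 CPM in PQ 1w and 467, 364 and 542 CPM in control 1w libraries, which overlapped (log2 -0.45 ± 0.15, adjusted p = 0.0275). This call was lost without PQ 1w replicate 2 or 3 or control 1w replicate 1 or 3, where the log2 effect ran from -0.43 to -0.30. At 4w it was at 255, 268 and 331 CPM in PQ and 336, 314 and 344 CPM in control lungs (log2 -0.29 ± 0.15, adjusted p = 0.234). Pdgfrb, carried by pericytes and fibroblasts, was at 248, 281 and 250 CPM in PQ 1w and 214, 195 and 246 CPM in control 1w libraries. Its rise of 0.24 ± 0.09 on the log2 scale had an adjusted p of 0.0499, and it did not pass under 13 of 19 alternative settings. At 4w Pdgfrb was at 224, 226 and 232 CPM in PQ and 205, 188 and 224 CPM in control lungs (log2 0.07 ± 0.09, adjusted p = 0.679).

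Beside these, the summed level of 6 activated fibroblast markers was 8683 to 10820 CPM in PQ 1w and 1994 to 2169 CPM in control 1w libraries, and 5 of the 6 were called higher. Over 6 alveolar fibroblast markers the sum was 1775 to 2284 CPM in PQ 1w and 3606 to 4077 CPM in control 1w libraries, with 5 called lower. Over 7 pericyte and smooth muscle markers it was 833 to 862 CPM in PQ 1w and 578 to 620 CPM in control 1w libraries, with 2 called higher and 1 lower. The part of these cells in the PDGF results was not tested.

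In the IGF system the ligand Igf1 rose, its receptor Igf1r fell at both times, and the binding proteins divided into genes that rose and genes that fell. Igf1 was at 119, 152 and 134 CPM in PQ 1w libraries, against 28.5, 28.1 and 19.3 CPM in control 1w libraries. Every PQ library lay far above every control, and the difference was 5.30-fold (log2 2.41 ± 0.19, adjusted p = 1.52e-06). At 4w Igf1 was at 30.0, 29.2 and 28.2 CPM in PQ lungs, against 14.7, 24.5 and 13.4 CPM in control lungs, without overlap. The log2 effect of 0.67 ± 0.20 (adjusted p = 0.0469) was near the threshold and did not pass under 11 of 19 settings, with adjusted p from 0.0067 to 0.165 over all of them. The effects at 4w and 1w differed by -1.74 ± 0.27 (adjusted p = 0.000707).

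The sum over 6 macrophage markers was 577 to 611 CPM in PQ 1w and 125 to 140 CPM in control 1w libraries, and all 6 were called higher. At 4w it was 237 to 290 CPM in PQ and 104 to 122 CPM in control lungs, with 5 called higher and 1 lower. These markers moved with Igf1 at both times. So did the sum over 6 activated fibroblast markers, given above for 1w. At 4w that sum was 1865 to 1959 CPM in PQ and 1495 to 1626 CPM in control lungs. Of these, 2 were called higher and 4 did not pass. The alveolar fibroblast markers did not move with Igf1, with 5 of 6 called lower at 1w and 3 at 4w. The part of these cells in the Igf1 level was not tested.

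Igf1r, the receptor tyrosine kinase for IGF1, was called lower at 1w (log2 -0.59 ± 0.07, adjusted p = 4.62e-05), with 77.6 to 84.4 CPM in PQ and 104 to 132 CPM in control libraries. At 4w it was called lower again (log2 -0.40 ± 0.07, adjusted p = 0.00595), with 102 to 104 CPM in PQ and 128 to 131 CPM in control libraries. Igf2r, the mannose 6-phosphate receptor that clears IGF2, went the other way at 1w (log2 0.50 ± 0.06, adjusted p = 6.15e-05) and had an effect of 0.04 at 4w (adjusted p = 0.767). Igf2 itself was at 9.04 to 10.9 CPM in PQ 1w and 11.1 to 13.7 CPM in control 1w libraries and did not pass (log2 -0.29 ± 0.12, adjusted p = 0.0625). Igf2os overlaps Igf2 on the opposite strand and stayed at or under 0.87 CPM, and since the counting is not stated to use strand, reads of the pair cannot be told apart.

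The IGF binding proteins carry IGFs in the matrix and the circulation, and they include the most abundant transcripts of the whole list. Igfbp7 ranked first of the 54 by FPKM in every group, with 844 ± 53 FPKM in PQ 1w, 601 ± 61 in control 1w, 480 ± 60 in PQ 4w and 520 ± 14 in control 4w libraries (SD, n = 3 each). At 1w Igfbp4 (log2 0.64 ± 0.09), Igfbp5 (0.51 ± 0.14) and Igfbp7 (0.48 ± 0.11) were called higher, with adjusted p from 0.000145 to 0.00826. Igfbp3 and Igfbp6 were called lower, and Igfbp2 did not pass. Igfbp1, a product of liver and decidua, had 0.11 CPM at most.

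Igfbp3, the main carrier of IGFs in plasma, was at 91.8, 35.6 and 53.4 CPM in PQ 1w libraries, against 142, 160 and 139 CPM in control 1w libraries. All PQ libraries were lower, though they differed among themselves, and the fall was 2.45-fold (log2 -1.29 ± 0.27, adjusted p = 0.0018). Its levels at 4w were 43.8, 70.4 and 64.5 CPM in PQ lungs, against 129, 125 and 134 CPM in controls, without overlap (log2 -1.19 ± 0.27, adjusted p = 0.0155). Without PQ 4w replicate 1 or control 4w replicate 1 the adjusted p at 4w was 0.0587.

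Igfbp6, which prefers IGF2 over IGF1, was at 115, 60.6 and 97.0 CPM in PQ 1w libraries, against 200, 242 and 200 CPM in control 1w libraries, 2.37-fold lower (log2 -1.25 ± 0.18, adjusted p = 0.00015). The values at 4w were 117, 128 and 141 CPM in PQ lungs, against 225, 213 and 236 CPM in control lungs, 1.83-fold lower (log2 -0.88 ± 0.18, adjusted p = 0.0106). The groups did not overlap at either time, and the effects at 4w and 1w did not differ beyond the test (0.37 ± 0.25, adjusted p = 0.286).

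Igfbp2, highly expressed in alveolar type 1 cells, was at 307, 262 and 329 CPM in PQ 1w and 251, 358 and 328 CPM in control 1w libraries, which overlapped (log2 -0.07 ± 0.42, adjusted p = 0.9). Among the 4w libraries it was at 32.2, 156 and 158 CPM in PQ lungs, against 330, 388 and 211 CPM in control lungs. Each PQ library was below each control, and PQ 4w replicate 1, in which alveolar type 1 markers were lowest, was lowest by far. The log2 effect was -1.48 ± 0.44 (adjusted p = 0.0455) and did not pass under 11 of 19 settings, with effects from -1.76 to -1.03. The sum over 7 alveolar type 1 markers at 4w was 2486 to 4129 CPM in PQ and 4267 to 4922 CPM in control lungs. Of these markers, 2 were called lower and 5 did not pass. The 1w sum was also lower, 3951 to 4412 CPM in PQ and 4901 to 5704 CPM in control lungs, though Igfbp2 did not pass. At 1w, 2 of these markers were called lower, 1 higher, and 4 did not pass. The part of these cells in the Igfbp2 level was not tested.

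**Figure D3:**
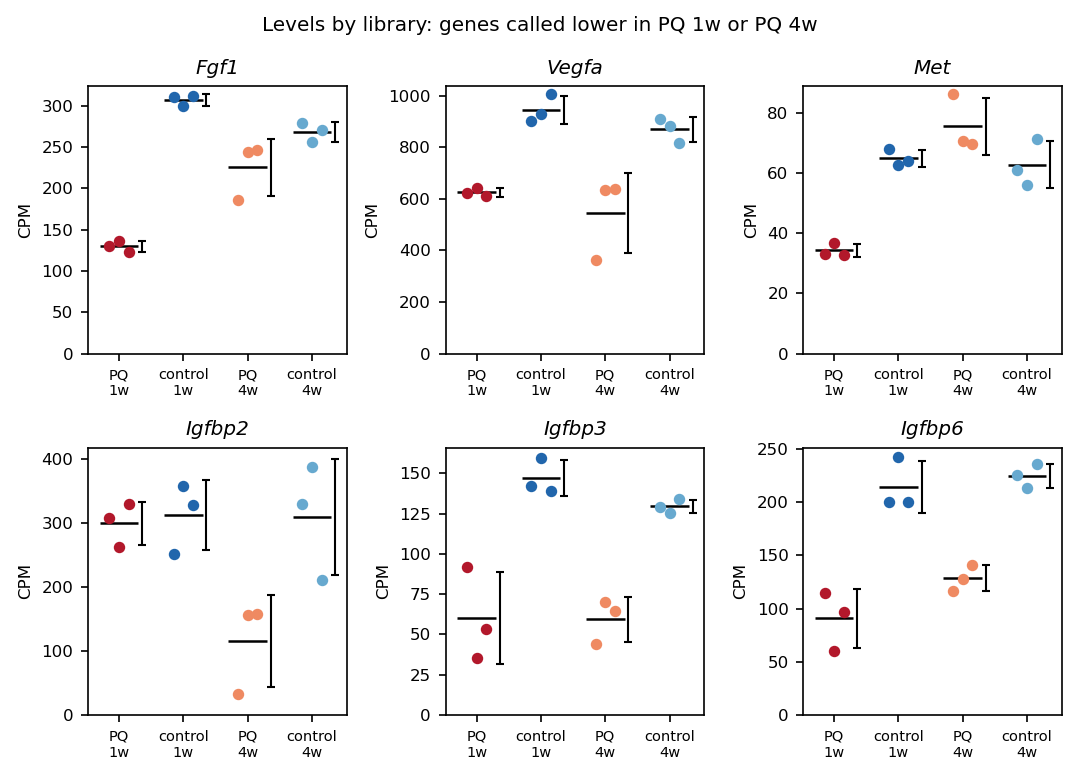
CPM for Fgf1, Vegfa, Met, Igfbp2, Igfbp3 and Igfbp6 in each library, with PQ left of control at each time, axes from 0, points for libraries, lines for group means and bars for the SD (n = 3). Igfbp3, Igfbp6, Vegfa and Fgf1 are below control at both times, Fgf1 with its lowest values in PQ 1w. Igfbp2 is below control only among the PQ 4w libraries, and Met only in PQ 1w.

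The Igf2bp genes encode RNA-binding proteins named for their binding to Igf2 mRNA. Igf2bp1 was at 4.90, 6.48 and 4.96 CPM in PQ 1w libraries, against 2.75, 2.82 and 2.85 CPM in control 1w libraries (log2 0.94 ± 0.18, adjusted p = 0.000835). At 4w the direction was opposite, with 1.39, 1.89 and 1.83 CPM in PQ lungs, against 4.06, 3.25 and 3.56 CPM in control lungs (log2 -1.15 ± 0.19, adjusted p = 0.00361). The difference of the effects was -2.10 ± 0.26 (adjusted p = 0.000181). Igfbp4 was the other gene called higher at 1w and lower at 4w, but its 4w effect of -0.33 ± 0.09 (adjusted p = 0.0374) did not pass under 10 of 19 settings. Igf2bp2 was called lower at 4w (log2 -0.60 ± 0.14, adjusted p = 0.0147), with an adjusted p of 0.0513 without PQ 4w replicate 1 and 0.0612 without control 4w replicate 2. Igf2bp3 was at 0.67 to 1.96 CPM over all libraries and passed at neither time.

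Of 10 partners of the IGF receptors and proteases of the binding proteins, Pappa, Stc2 and Htra3 were called higher at 1w, Irs1 lower, and 6 did not pass. Pappa encodes pappalysin, the protease that cleaves IGFBP4, and it was at 18.6, 14.8 and 19.4 CPM in PQ 1w libraries, against 4.39, 1.75 and 3.68 CPM in control 1w libraries, 5.34-fold. Stc2, which encodes an inhibitor of pappalysin, was 2.40-fold higher, and Irs1, the adaptor of the IGF1 and insulin receptors, had a log2 effect of -0.86. At 4w only Stc1 was called, lower at -0.86 (adjusted p = 0.0162). Over all genes, 48.8% were called at 1w and 12.1% at 4w.

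In the FGF system Fgfr1 rose at 1w, while the other receptors and the ligand Fgf1 fell. At 1w, 1 of the 13 tested genes was called higher (Fgfr1) and 6 lower (Fgf1, Fgfr3, Fgfr4, Fgfr2, Fgf10 and Fgf11). That is 53.8% called, near the 48.8% of all genes, and the call of Fgf11 was lost without PQ 1w replicate 1, PQ 1w replicate 3 or control 1w replicate 2 (adjusted p from 0.0765 to 0.109). At 4w only Fgfr3 was called, lower, 7.69% of the 13 where 12.1% of all genes were called. Fgf1, a ligand of all FGF receptors, was at 131, 136 and 123 CPM in PQ 1w libraries, against 310, 299 and 312 CPM in control 1w libraries, 2.38-fold lower without overlap (log2 -1.25 ± 0.10, adjusted p = 1.99e-06). Corresponding values at 4w were 186, 244 and 247 CPM in PQ and 279, 256 and 271 CPM in control lungs, with every PQ library still lower but the test not passed (log2 -0.32 ± 0.10, adjusted p = 0.061).

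The mesenchymal ligands for epithelial FGFR2 behaved otherwise. Fgf10 was at 17.9, 16.6 and 17.2 CPM in PQ 1w libraries, against 23.2, 24.7 and 19.9 CPM in control 1w libraries, a small fall (log2 -0.40 ± 0.10, adjusted p = 0.00531). At 4w it was at 19.2, 19.8 and 21.6 CPM in PQ and 19.2, 17.2 and 17.3 CPM in control lungs (log2 0.10 ± 0.10, adjusted p = 0.562). Fgf7, keratinocyte growth factor, was at 22.7, 18.2 and 22.8 CPM in PQ 1w and 25.0, 22.2 and 18.2 CPM in control 1w libraries, which overlapped (log2 -0.05 ± 0.12, adjusted p = 0.764). Its 4w levels were 28.0, 28.2 and 27.3 CPM in PQ and 22.7, 22 and 25 CPM in control lungs, each PQ library being higher without passing the test (log2 0.19 ± 0.12, adjusted p = 0.335).

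Fgf2, the basic FGF, was low throughout, at 3.07, 4.86 and 3.05 CPM in PQ 1w and 2.41, 1.49 and 3.01 CPM in control 1w libraries (log2 0.66 ± 0.30, adjusted p = 0.093). Its levels at 4w were 1.34, 0.69 and 1.2 CPM in PQ and 1.69, 1.03 and 1.57 CPM in control lungs (log2 -0.49 ± 0.36, adjusted p = 0.412). Fgf18, a ligand of lung development, was called at neither time. Among the untested ligands, Fgf23, a hormone of phosphate balance made by bone, had 6, 10 and 10 counts in PQ 1w libraries, against 1 count in each control 1w library. Fgf8 was listed in PQ 1w replicate 2 and in no other library.

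The 4 receptors did not move together. Fgfr1 was at 179, 168 and 167 CPM in PQ 1w libraries, against 92.9, 85.8 and 96.1 CPM in control 1w libraries, 1.86-fold higher (log2 0.89 ± 0.07, adjusted p = 1.28e-06). The values at 4w were 104, 104 and 97.6 CPM in PQ and 93.2, 101 and 110 CPM in control lungs, which overlapped (log2 -0.06 ± 0.07, adjusted p = 0.602), with a sign that turned positive under library-total scaling. Fgfr3 was at 128, 97.8 and 116 CPM in PQ 1w libraries, against 232, 252 and 288 CPM in control 1w libraries, 2.28-fold lower (log2 -1.19 ± 0.12, adjusted p = 7.07e-06). At 4w Fgfr3 was at 188, 196 and 177 CPM in PQ lungs, against 278, 245 and 300 CPM in control lungs (log2 -0.63 ± 0.12, adjusted p = 0.00624).

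Fgfr4 was at 19.2, 20.6 and 21.4 CPM in PQ 1w libraries, against 33.0, 37.5 and 38.0 CPM in control 1w libraries (log2 -0.84 ± 0.14, adjusted p = 0.000473). At 4w its values, 25.7, 25.5 and 35.9 CPM in PQ and 37.1, 30.6 and 41.9 CPM in control lungs, overlapped (log2 -0.40 ± 0.14, adjusted p = 0.0836). Fgfr2, the epithelial receptor for FGF7 and FGF10, was at 85.0 to 97.3 CPM in PQ 1w and 150 to 154 CPM in control 1w libraries (log2 -0.76 ± 0.07, adjusted p = 3.53e-06). Among the 4w libraries it was at 155 to 176 CPM in PQ and 139 to 152 CPM in control lungs, without overlap in the upward direction but not passed (log2 0.13 ± 0.07, adjusted p = 0.223).

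As a share of the summed FPKM of the 4 receptors, Fgfr1 made up 40.3%, 40.9% and 39.4% in PQ 1w libraries, against 16.3%, 14.5% and 14.9% in control 1w libraries. Fgfr3 made up 34.4%, 28.3% and 32.6% in PQ 1w libraries, against 48.6%, 51.0% and 53.0% in control 1w libraries. Fgfr1 thus stood above Fgfr3 in all PQ 1w libraries and below it in all others. At 4w Fgfr2 had 30.5% ± 1.3 in PQ and 22.6% ± 0.9 in control lungs, and Fgfr3 had 41.9% ± 1.1 in PQ and 52.1% ± 1.3 in control lungs (SD, n = 3 each).

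**Figure D4:**
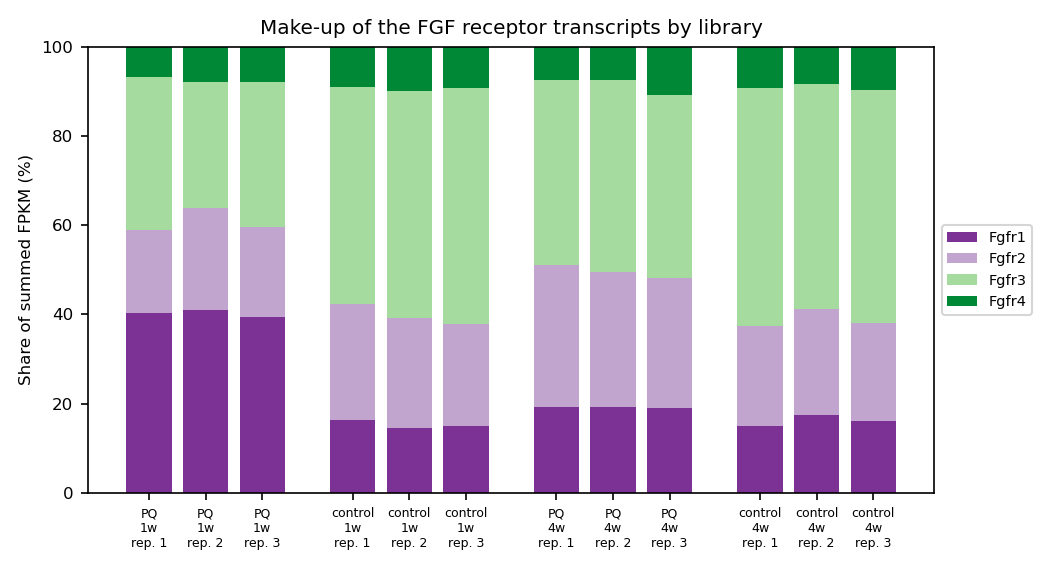
Share of the summed FPKM of Fgfr1 to Fgfr4 held by each receptor, as stacked bars that add to 100% in each of the 12 libraries. The Fgfr1 segment is 39.4% to 40.9% in the PQ 1w bars and 14.5% to 19.3% in all other bars.

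The sum over 7 alveolar type 2 markers was 15970 to 17690 CPM in PQ 1w and 26040 to 31890 CPM in control 1w libraries, with 6 called lower, and that over 6 airway markers was 4453 to 5569 CPM in PQ 1w and 22290 to 31000 CPM in control 1w libraries, with 4 called lower. At 4w the alveolar type 2 sum was 26070 to 27630 CPM in PQ and 22780 to 25820 CPM in control lungs, with 2 called higher, and the airway sum was 23990 to 47790 CPM in PQ and 46630 to 54220 CPM in control lungs, with 1 called lower. These epithelial markers moved with Fgfr2 and Met at 1w, and their part was not tested. Of 6 FGF co-receptor and binding protein genes tested, Fgfbp1 was called lower at 1w (log2 -1.27) and Fgfrl1 at 4w (-0.34). The other 5 did not pass each time, where 48.8% of all genes were called at 1w and 12.1% at 4w.

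In the VEGF system Vegfa fell at both times and Vegfc rose at 1w. Vegfa, the main endothelial survival factor of the lung, was at 621, 643 and 610 CPM in PQ 1w libraries, against 901, 928 and 1005 CPM in control 1w libraries (log2 -0.61 ± 0.17, adjusted p = 0.0102). Corresponding values at 4w were 364, 633 and 637 CPM in PQ lungs, against 910, 881 and 814 CPM in control lungs (log2 -0.74 ± 0.17, adjusted p = 0.0161). The groups did not overlap at either time, and PQ 4w replicate 1 was the lowest library of all 12. Without control 4w replicate 1 the 4w effect was -0.69 and did not pass (adjusted p = 0.0717), nor did it with only the 2 groups compared (-0.74, adjusted p = 0.0886).

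Vegfc, a ligand of the lymphatic receptor FLT4, was at 35.9, 35.8 and 41.0 CPM in PQ 1w libraries, against 20.1, 22.9 and 23.9 CPM in control 1w libraries (log2 0.74 ± 0.10, adjusted p = 6.16e-05). At 4w it was at 20.7, 22 and 20.2 CPM in PQ and 26.4, 25.7 and 21.7 CPM in control lungs. The groups overlapped, PQ 4w replicate 2 being above control 4w replicate 3, and the test was not passed (log2 -0.30 ± 0.10, adjusted p = 0.0656). The effects differed by -1.04 ± 0.14 (adjusted p = 0.00026). Vegfb had a log2 effect of -0.24 ± 0.09 at both times, with an adjusted p of 0.04 at 1w, where it did not pass under 10 of 19 settings, and of 0.0998 at 4w.

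Of 7 VEGF receptors, co-receptors and other ligands, Pgf, Nrp2 and Figf were called higher at 1w, and the receptors Kdr and Flt1 lower. Pgf, placental growth factor, was at 19.8 ± 1.2 CPM in PQ 1w and 4.78 ± 0.24 CPM in control 1w libraries (SD, n = 3 each), 4.11-fold. Kdr, the main signalling receptor of VEGF-A, had a log2 effect of -0.89 ± 0.16 at 1w and -0.78 ± 0.16 at 4w, and Flt1 had effects of -0.53 ± 0.10 and -0.65 ± 0.10, all 4 called. At 4w Nrp2 was called higher (0.34), and 4 genes did not pass. Shares called over all genes were 48.8% at 1w and 12.1% at 4w. The sum over 7 capillary endothelium markers was 2168 to 2662 CPM in PQ 1w and 3716 to 4172 CPM in control 1w libraries, with 4 called lower, and 1908 to 2833 CPM in PQ 4w and 3895 to 4107 CPM in control 4w libraries, with 6 called lower. These markers moved with Kdr, Flt1 and Vegfa, and their part was not tested.

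Of the HGF and stem cell factor pairs, the receptor Met and the pair Kitl and Kit fell at 1w, and the ligand Hgf did not pass. Met was at 33.2, 36.8 and 32.9 CPM in PQ 1w libraries, against 68.0, 62.8 and 63.8 CPM in control 1w libraries, 1.91-fold lower (log2 -0.93 ± 0.10, adjusted p = 1.57e-05). Its levels at 4w were 86.2, 70.5 and 69.6 CPM in PQ and 60.8, 55.9 and 71.3 CPM in control lungs, which overlapped (log2 0.19 ± 0.10, adjusted p = 0.233). The effects differed by 1.12 ± 0.14 (adjusted p = 0.000209), the greatest positive difference on the list. Hgf, a mesenchymal factor for epithelium and endothelium, was at 14.8, 18.4 and 13.8 CPM in PQ 1w and 14.1, 10.2 and 14.0 CPM in control 1w libraries (log2 0.29 ± 0.20, adjusted p = 0.268). The values at 4w were 14.0, 11.0 and 14.6 CPM in PQ and 7.16, 6.68 and 11.4 CPM in control lungs, overlapping through control 4w replicate 3 (log2 0.57 ± 0.21, adjusted p = 0.098). Without that library, which made the overlap, the effect was 0.88 and passed (adjusted p = 0.0202). Egfr, Fgf1, Fgfr4, Kit and Pdgfa, not called at 4w in the main fit, also passed there under some alternative setting.

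Kitl, stem cell factor, was at 175, 160 and 171 CPM in PQ 1w libraries, against 262, 235 and 232 CPM in control 1w libraries (log2 -0.54 ± 0.10, adjusted p = 0.000883). Among the 4w libraries it was at 154, 179 and 205 CPM in PQ lungs, against 272, 248 and 240 CPM in control lungs (log2 -0.57 ± 0.10, adjusted p = 0.0048). The groups did not overlap at either time, and the effects differed by -0.03 ± 0.14 (adjusted p = 0.88). Its receptor Kit was at 156, 153 and 162 CPM in PQ 1w libraries, against 219, 187 and 215 CPM in control 1w libraries (log2 -0.41 ± 0.11, adjusted p = 0.00951). At 4w Kit was at 163, 175 and 226 CPM in PQ and 213, 198 and 231 CPM in control lungs, which overlapped (log2 -0.26 ± 0.11, adjusted p = 0.156). Mast cells carry KIT, and the sum over 6 mast cell markers was 1.99 to 2.54 CPM in PQ 1w and 4.27 to 5.10 CPM in control 1w libraries. Of these, 3 of the 4 tested were called lower, in the same direction as Kit. The capillary endothelium markers had the same direction, with sums of 2168 to 2662 CPM in PQ 1w and 3716 to 4172 CPM in control 1w libraries. Among those 7, 4 were called lower and 3 did not pass. The part of either cell type in the Kit level was not tested. Among 7 genes of HGF and MSP activation, Plau was called higher at 1w (2.44-fold) and Spint2 lower (log2 -0.40), and none was called at 4w. Background shares over all genes were 48.8% at 1w and 12.1% at 4w.

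Genes induced or used as brakes by receptor tyrosine kinase signalling were called in both directions, at a share near that of all genes. Of 17 such genes, 5 were called higher at 1w (Etv4, Spred3, Spry3, Spry4 and Spred1), 4 lower (Errfi1, Spred2, Spry2 and Etv5), and 8 did not pass, where 25.9% of all genes were called higher and 22.9% lower. Etv4, a transcription factor induced by FGF and ERK signals, was at 9.11, 14.1 and 12.5 CPM in PQ 1w libraries, against 0.62, 0.44 and 0.49 CPM in control 1w libraries, 22.6-fold. Etv4 was 2.94-fold higher at 4w (adjusted p = 0.0116), where Dusp5 was also called higher (1.86-fold) and Spry1 lower (log2 -0.35). The median log2 effect over the 17 genes was 0.09 at 1w and 0.19 at 4w, beside 0.005 and 0.004 over all genes.

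The comparison over time was made within PQ and within control lungs. In PQ 4w against PQ 1w lungs, 8 of the 44 genes were called higher and 20 lower, where 54.5% of all genes were called, 26.7% higher and 27.8% lower. In control 4w against control 1w lungs, Fgf12 was called higher and Egfr, Fgf10, Hbegf and Igf2bp2 lower, where 10.1% of all genes were called, 5.90% higher and 4.20% lower. Over all genes the control split was 940 higher and 669 lower, and 1121 higher and 1207 lower by DESeq2. The calls over time in control lungs rested on single libraries. None of the 4 called lower passed without control 1w replicate 1 or 3 or control 4w replicate 2 or 3. Without control 4w replicate 2 the 1 gene called lower was Igf1, and without control 4w replicate 3 it was Hgf. Egfr alone passed without PQ 1w replicate 3 or control 4w replicate 1, and Egfr and Hbegf passed without PQ 1w replicate 1 or 2. The call of Fgf12 was lost without PQ 1w replicate 3, any control 1w library, or control 4w replicate 2 or 3. The difference of the PQ effects, 4w minus 1w, passed for 18 of the 44 genes, 5 positive and 13 negative, where 32.0% of all genes were called, 14.1% positive and 17.9% negative.

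Remaining marker lists gave these values. The sum over 6 proliferation genes was 435 to 506 CPM in PQ 1w and 78.3 to 99.4 CPM in control 1w libraries, with all 6 called higher, and 3 were called higher at 4w. The sum over 5 mesothelial genes was 804 to 875 CPM in PQ 1w and 339 to 418 CPM in control 1w libraries, with 2 called higher, and none was called at 4w. Over 5 neutrophil genes it was 85.2 to 149 CPM in PQ 1w and 167 to 380 CPM in control 1w libraries, with 2 called lower. All 5 were called lower at 4w, though the sums overlapped. They were 88.1, 93.8 and 130.3 CPM in PQ 4w and 319.7, 530.3 and 124.5 CPM in control 4w libraries. The part of these cells in the growth factor results was not tested.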

How the data were processed

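RNA from homogenized lung was sequenced on a BGISEQ 500 after selection for RNA integrity above 7.0, per the labels' protocols. HISAT, RSEM 1.2.12 and the mm10 build are named in the submitters' processing notes. The authors deposited, per gene, expected counts and FPKM for each of 12 libraries; strandedness is not given in the sources used here, and 69.73% of the expected counts were whole. Expected counts were rounded and fitted with edgeR 4.0.16 in R 4.3.3 as 4 group means with TMM factors (0.9735 to 1.057), after its filter on low counts (minimum count 10, minimum total 15), and tested with the quasi-likelihood test with Benjamini-Hochberg adjustment over 15921 genes. A call is an adjusted p under 0.05. Standard errors are the log2 effect divided by the square root of F and are approximate. Levels are CPM, expected counts scaled to a library total of 1000000. FPKM as deposited by the authors was used to order different genes and for shares within a family. Those shares, and the FPKM of Igfbp7, are also given for each group compared. The gene lengths behind FPKM differed between libraries for 19 of the 54 genes.

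Values by library are given for genes with an adjusted p under 0.05, an absolute log2 effect of at least 0.8 and a mean of at least 1 CPM, and for 15 set by name. Those of Hbegf, Vegfc, Fgf23, Pappa and Etv4 were chosen after their values were seen. The genes, lists and rules were chosen with earlier results of these data known. Alternatives were RLE scaling, library totals, DESeq2 1.42.0, no filter, a filter of 1 CPM in 3 libraries, a replicate block, the 2 groups alone, and each library left out. Replicate numbers were the same across groups, but over 18 same-numbered pairs the correlation of deviations ran from -0.35 to 0.28, with 5 over 0.1, so they were not treated as pairs. The fit was tested on simulated data. Gene positions and promoter windows are from RefSeq, GRCm38.p6, matched by gene ID. Precision from depth covers counting error only.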

Additional observations from a re-analysis of the deposited data

Results flagged for a closer look

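For 18 of the 44 genes tested, the PQ effects at 4w and 1w differed by a test of the difference itself (edgeR, 4w minus 1w on the log2 scale, adjusted p under 0.05). That is 40.9%, where 32.0% of all genes were called, 14.1% positive and 17.9% negative. Among ligands the difference was negative for Ereg (-2.604), Igf1 (-1.738), Hbegf (-1.194), Pdgfc (-1.174), Vegfc (-1.044) and Pdgfa (-0.641), and positive for Fgf1 (0.929) and Fgf10 (0.501). Among receptors it was negative for Fgfr1 (-0.956) and Igf2r (-0.464) and for the receptor-like Pdgfrl (-1.459), and positive for Met (1.123), Fgfr2 (0.895) and Fgfr3 (0.561). It was negative for the binding proteins Igfbp4 (-0.972) and Igfbp7 (-0.667), for Igf2bp1 (-2.096) and for the intracellular Fgf12 (-1.513). Fgf12, at 0.89 to 4.83 CPM over the libraries, did not pass under 13 of 18 other settings, Ereg did not without control 4w replicate 1 or 3, and Fgfr3 did not without control 1w replicate 3 or control 4w replicate 2.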

How the results depend on the processing

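Over 2205 values of single genes under other settings, 2022 kept their direction and side of the threshold, 161 no longer passed, 12 newly passed and 10 changed sign. With 1 library left out, the genes called higher and lower ranged from 13 to 15 and 14 to 17 at 1w, from 3 to 5 and 6 to 14 at 4w, from 4 to 6 and 11 to 14 for the difference of effects, from 6 to 8 and 18 to 22 for PQ 4w against PQ 1w, and from 0 to 1 and 0 to 6 for control 4w against control 1w. With only the 2 groups compared, 3 genes were called higher at 4w and 746 of all genes were called, against 1932 with all 4 groups. DESeq2 called 8 genes lower in control 4w against control 1w lungs, and the replicate block called 2. That block, with numbers that did not pair the libraries, changed no other count of these genes by over 1.5 times. The sign changes were of effects that passed in neither setting. At 1w, with 1 library left out, Fgf7 ran from -0.152 to 0.065, with 0.052 and 0.065 without PQ 1w replicate 2 and control 1w replicate 1. Igfbp2 ran from -0.204 to 0.046, with 0.016 and 0.046 without PQ 1w replicate 2 and control 1w replicate 2. Pdgfb ran from -0.132 to 0.054, the highest without control 1w replicate 3. At 4w Fgfr1 was 0.008 with library totals and ran from -0.102 to 0.014, the highest without control 4w replicate 3. Pdgfb ran from -0.010 to 0.076, with -0.004, -0.000 and -0.010 without PQ 4w replicate 1, PQ 4w replicate 2 and control 4w replicate 1. The causes were not tested. At these depths 1 count is 0.0539 to 0.0581 CPM, which limits Ereg in controls and the 10 untested genes.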
